A study of Homo sapiens with 2 samples.

Results

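Glycosylphosphatidylinositol (GPI) is a glycolipid that ties a class of proteins to the outer face of the plasma membrane. The genes described here make, attach, remodel or cut the GPI anchor, or code for surface proteins that carry one. There were 38 such genes, chosen by name when earlier results of these data were already known. Of the 38 genes, 37 had at least 1 probe set annotated to that gene alone. On the whole array 19775 genes had such a probe set. PIGY had none and has no value here.

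RNA came from stably transfected SK-N-MC, an established human line that the submitters call a neuroepithelioma line and that is now placed in the Ewing tumour family. In the vector control group (clone 1) the cells carried the pCMV-Script expression vector without an insert. In the hyperexpression group (clone 4) they carried the same vector with human melanotransferrin cDNA, and both groups had been transfected with Lipofectin reagent. Each group was 1 clone on 1 Affymetrix GeneChip array, so clone and transgene cannot be told apart, there is no SD between replicates, and no test between groups is given. Melanotransferrin is an iron-binding transferrin homologue that is itself held at the membrane by a GPI anchor. The comparison gives the transcripts of its own anchoring machinery in a clone with a higher signal for the inserted transcript. The arrays read RNA only, so the amount of melanotransferrin protein is not known from them.

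The anchor is built on phosphatidylinositol in the endoplasmic reticulum by stepwise addition of N-acetylglucosamine, mannose and ethanolamine phosphate. A transamidase then swaps the C-terminal peptide of a client protein for the finished anchor, lipid remodelling follows, and p24 cargo receptors carry the protein towards the Golgi. In neural and mesenchymal cells the clients include THY1, the complement regulators CD55 and CD59, and the glypicans, which carry heparan sulphate chains.

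The values are probe set signals in linear array units. A signal below 208.0, the 90th percentile of 191 probe sets for odour receptor, bitter taste receptor and hair keratin-associated genes, was treated as background. Where 1 of the 2 signals lay below this floor, the ratio was taken against the floor and is a bound, written as "at least". Over the whole array 12663 genes were above the floor on at least 1 array, with a median log2 ratio (clone over control) of -0.022. The only measure of error was the disagreement among probe sets of the same gene, whose log2 ratios had a pooled SD of 0.35 over 5387 genes. It comes from the same 2 RNA samples and says nothing of the spread between cultures or clones. In RNA from whole cultures, fewer cells with a transcript and less transcript per cell cannot be told apart.

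The transgene and the cell line were checked first. The MELTF probe set annotated to the inserted transcript read 18.4 in the control cells and 4449.4 in the clone, at least 21.4-fold higher, while its other 3 probe sets read 245.8 and 209.3, 64.4 and 125.5, and 19.2 and 10.8. Of 9 Ewing line markers with a probe set, 9 were above the floor on at least 1 array and 8 on both. All 8 fibroblast markers were also above it on both arrays, with a summed signal of 69138.6 in the control and 61578.3 in the clone. Below the floor on both arrays were 6 of 8 epithelial, 6 of 8 hepatocyte, 5 of 7 leukocyte and 4 of 7 melanocyte markers. Some markers of these lists were nevertheless bright. PTPRC, a leukocyte marker, stood at 15581.1 (control) and 13942.6 (clone). The epithelial marker KRT18 stood at 9759.9 and 10363.0, and the melanocyte marker KIT at 6439.3 and 6726.3. The brightest hepatocyte signal was 300.0, for CYP3A4 on the clone array. Background probe sets had a median of 67.4 in the control and 44.0 in the clone. Since the arrays had been brought to a common mean, each direction below is relative to the bulk of genes. Centring on spike transcripts added at hybridisation moved the median of all genes by 0.49 on the log2 scale, and centring on poly-A spikes by -0.56. Every measured member other than DPM2, GPC1 and GPC2 changed sign under 1 of these 2 scalings. For PIGQ the change came with a switch to its other probe set, which became the brighter after centring on the hybridisation spikes.

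The GPI genes differed little between the 2 arrays, and none was counted as 2-fold apart, although GPC1 has only a bound. Of the 37 genes, 36 were above the floor on at least 1 array and 35 on both. At least 2-fold higher in the clone were 0 of 36 members, against 1.21% of all measured genes, and 0 were at least 2-fold lower, against 1.9%. With shares this small, counts of 0 of 36 do not set the members apart from other genes. At the smaller size of 1.5-fold, DPM2, GPC1 and GPC2 were higher, 3 of 36 members or 8.33% against 5.38% of all genes. PIGQ alone was at least 1.5-fold lower, 2.78% of members against 8.43%. Centring on the hybridisation spikes changed these counts to 12 higher and 0 lower of 36, beside 35.7% and 2.35% of all genes. The 12 include PIGQ, read there by its other probe set. Centring on the poly-A spikes changed them to 0 higher and 23 lower of 36, beside 0.671% and 49.3%. The median log2 ratio of the 36 members was -0.071, beside -0.022 for all measured genes, with 16 members above and 20 below the latter. Over the 35 members above the floor on both arrays the SD of log2 ratios was 0.28, beside 0.38 for the 10795 genes so measured. Within 0.35 of the median of all genes, the probe set spread, lay 31 members or 86.1%, against 68.2% of all measured genes. These shares were not matched for signal, and 35 of 36 members but 10795 of 12663 genes passed the floor on both arrays. The 5 members outside it were DPM2, GPC1, GPC2 and GPC4 on the higher side and PIGQ on the lower side.

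**Figure D1:**
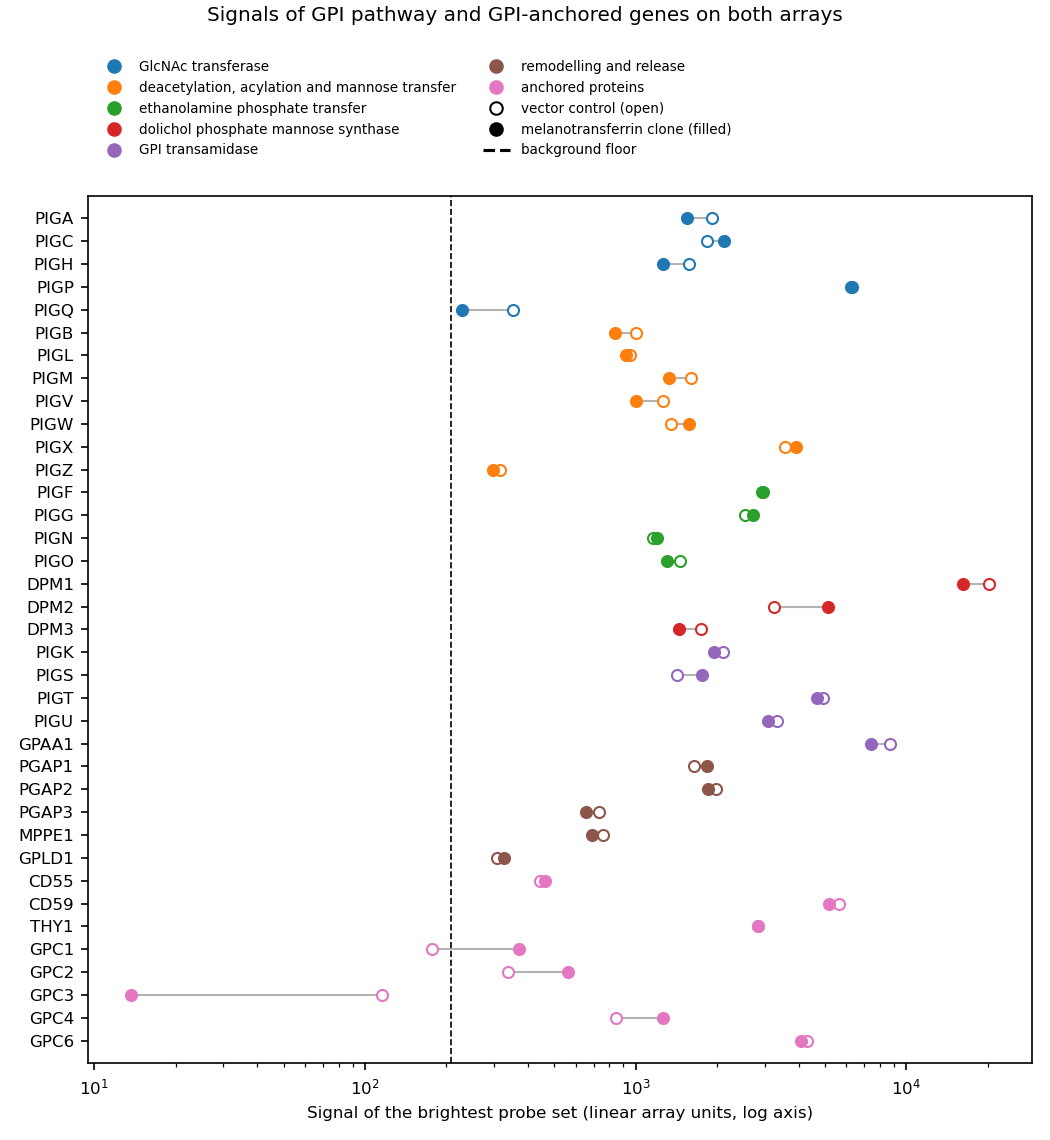
Signal of the brightest probe set of each of 37 GPI genes in the vector control (open circles) and the melanotransferrin clone (filled circles), on a log axis in linear array units, coloured by role; the dashed line is the floor of 208.0. Most pairs nearly touch, while DPM2, GPC1, GPC2 and GPC4 sit higher in the clone and PIGQ lower as deposited. GPC4 lost this direction when centred on poly-A spikes. PIGQ turned higher with the median of its probe sets and without the probe set of shared sequence. It also turned higher when centred on hybridisation spikes, where its other probe set became the brighter and was the one read. GPC3 lies below the floor on both arrays, where the distance between its points has no meaning.

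The first reaction, transfer of N-acetylglucosamine to phosphatidylinositol, is run by a membrane complex around PIGA, the X-linked gene mutated in paroxysmal nocturnal haemoglobinuria. PIGA read 1912.1 in vector cells and 1542.0 in the clone, a log2 ratio of -0.31. PIGH, its cytosolic partner, read 1579.2 and 1263.8, a log2 ratio of -0.32. PIGC, another subunit, stood the other way at 1832.3 and 2127.6, and its 3 probe sets had log2 ratios from 0.064 to 0.22. PIGP, a small subunit, was level at 6240.3 and 6296.5. PIGQ, which helps to hold the complex together, read 351.6 and 228.1, 1.54-fold lower. Its second probe set went the opposite way, from 181.9, below the floor, to 355.7, at least 1.71-fold higher, so the probe sets of PIGQ disagree in direction. The 5 measured subunits had a median log2 ratio of -0.31, and 2 of them lay above the median of all genes. Relative to that median the group's value was -0.29, and it became 0.060 when each gene was given the median of its probe sets.

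Next come the steps that deacetylate the sugar, acylate the inositol and add mannoses. PIGL, the deacetylase, read 950.7 and 922.5, with log2 ratios from -0.45 to -0.013 over 3 probe sets. PIGW, the inositol acyltransferase, read 1346.1 and 1580.5, a log2 ratio of 0.23. PIGM, which adds the first mannose, read 1601.4 and 1323.3 on its brightest probe set. The log2 ratios of its 3 probe sets ran from -0.28 to 0.79, the widest range of any member at 1.06. PIGX, the stabilising partner of PIGM, was higher on both probe sets measured on each array, at 3571.9 and 3906.0 on the brighter, while a dim one read 276.4 and 182.3. The mannosyltransferase PIGV read 1260.2 and 1006.6, but its other measured probe set had a log2 ratio of 0.20. PIGB, which adds the third mannose, was lower on both probe sets, at 999.2 and 840.7 on the brighter and with a log2 ratio of -0.59 on the other. PIGZ, which adds a further side mannose in some cells, read 315.3 and 296.7. The 7 genes had a median log2 ratio of -0.088, with 2 above the median of all genes and 5 below.

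Ethanolamine phosphate is added to the mannoses by PIGN, PIGO and PIGG, and PIGF is the shared partner of the last 2. PIGF read 2965.5 and 2928.6, and PIGG read 2525.9 and 2718.0. PIGN read 1156.9 and 1203.7 on 1 probe set and 1203.9 and 751.7 on the other, log2 ratios of 0.057 and -0.68. PIGO read 1454.4 and 1310.9, a log2 ratio of -0.15, and its second measured probe set gave -0.13. The 4 genes had the median closest to 0 of the synthesis groups, at 0.020.

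Dolichol phosphate mannose is the mannose donor for GPI, for N-glycan precursors and for protein O-mannosylation. Its synthase showed the clearest split within a group. DPM1, the catalytic subunit, read 20232 and 16209.6, a log2 ratio of -0.32, and DPM3, which tethers DPM1 to the membrane, read 1749.7 and 1449.1, a log2 ratio of -0.27. DPM2, which stabilises DPM3 and also binds the N-acetylglucosamine transferase complex, read 3243.1 and 5123.8, 1.58-fold higher. Each subunit had 1 probe set, so none has a second reading. Centred on the hybridisation spikes DPM1 and DPM3 turned to 0.18 and 0.23, whereas DPM2 was higher under every alternative, down to 0.050 when centred on the poly-A spikes.

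The transamidase that attaches the anchor was close to level. PIGK, its catalytic subunit, read 2109.4 and 1949.5, and GPAA1 read 8678.8 and 7419.2, with log2 ratios from -0.23 to -0.020 over 3 probe sets. PIGU read 3316.5 and 3074.7. PIGS stood highest of the group, at 1418.4 and 1751.8, a log2 ratio of 0.30 on its only probe set. PIGT read 4926.9 and 4691.7 on its brightest probe set, while a dimmer probe set with sequence shared among transcripts read 1068.5 and 572.0, a log2 ratio of -0.90, the value of largest size among the 68 member probe sets that passed the floor on each array. The median of the 5 subunits was -0.11.

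Among the genes that trim the anchor after attachment, PGAP1, the inositol deacylase, was higher on all 5 of its probe sets as deposited, with log2 ratios from 0.012 to 0.57. Its brightest probe set read 1647.7 and 1832.9, and its sign turned when centred on the poly-A spikes. PGAP2 and PGAP3, which exchange the lipid chains of the anchor in the Golgi, read 1981.1 and 1854.7 and 729.8 and 657.3. MPPE1, which removes an ethanolamine phosphate, read 759.7 and 690.8, although a dimmer probe set crossed the floor, at 180.9 and 387.9, at least 1.86-fold higher. GPLD1, a phospholipase that cuts the anchor and is made chiefly by liver, read 307.7 and 326.9, and its other 5 probe sets were below the floor on both arrays. The group's median was -0.095.

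**Figure D2:**
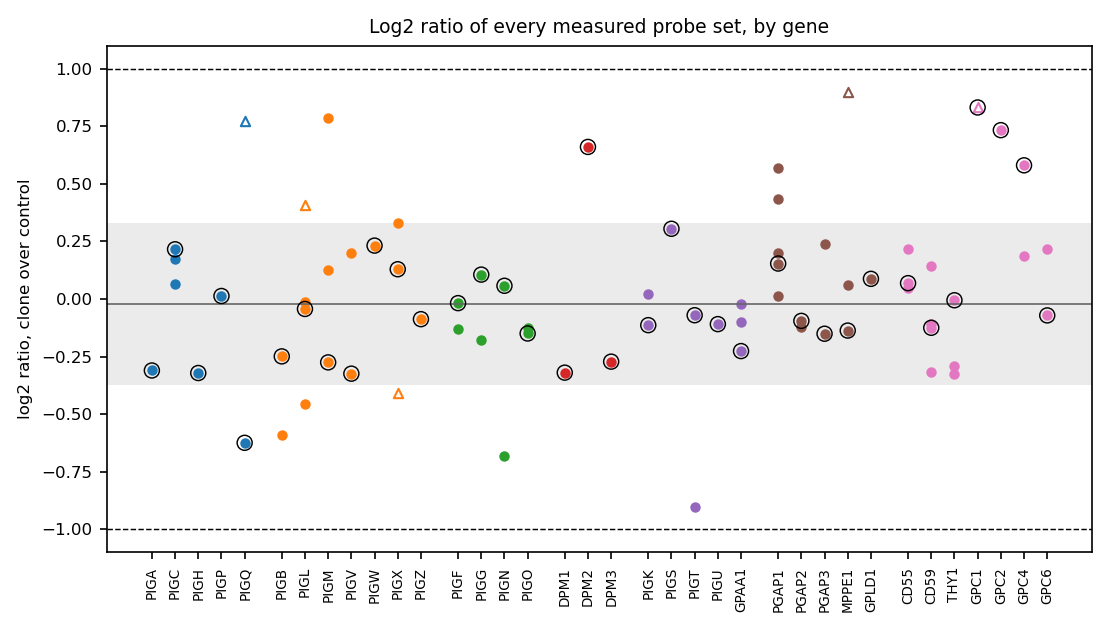
Log2 ratio (clone over control) of every probe set above the floor on at least 1 array, by gene and coloured by role as in the plot of signals; triangles are bounds, black rings mark each gene's brightest probe set, the grey band is the median of all genes plus or minus 0.35 and the dashed lines are 2-fold. No probe set measured on each array passes 2-fold and no bound reaches it, and probe sets of PIGM, PIGN, PIGQ and PIGT spread widely.

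Agreement among probe sets bears on how far each ratio can be read. The 37 genes had 88 probe sets, of which 68 passed the floor on each array, 4 in the clone only, 1 in the control only and 15 on neither. For 22 members with 2 or more probe sets measured on each array, the pooled SD of log2 ratios within a gene was 0.26. All probe sets pointed 1 way in 13 of these 22 genes, 5 higher and 8 lower, and pointed both ways in the other 9. Over all 5387 such genes 45.2% had probe sets that agreed in direction. A further 11 members, DPM2 and GPC2 among them, were read by a single probe set.

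Of the 4 members on the higher side of the probe set spread, 3 were glypicans among the anchored proteins, and the other was DPM2. Within the spread lay 68.2% of all measured genes, and their share on the higher side alone was not computed. Glypicans are GPI-anchored core proteins whose heparan sulphate chains bind growth factors and morphogens. GPC1 read 176.3 in vector cells, under the floor, and 370.0 in the clone, at least 1.78-fold higher, and its other probe set, at 47.2 and 40.7, lay in the background range. GPC2, a glypican of developing neurons, read 337.2 and 560.3, 1.66-fold higher on its only probe set. GPC4 read 846.8 and 1265.8, 1.49-fold higher, and its second probe set read 561.0 and 638.4, a log2 ratio of 0.19. With the floor 2 times as high GPC1 had no value and GPC2 came to a log2 value of 0.43, since the control signals of both lay near or under the floor. GPC6 was level at 4290.7 and 4083.6, with its second probe set at 1358.3 and 1580.3, and GPC3 was below the floor on all its readings. GPC5, a glypican outside the listed GPI genes, read 169.8 and 33.2 on its only probe set, also below the floor. Centred on the poly-A spikes GPC1 and GPC2 remained higher at 0.46 and 0.12, and GPC4 turned to -0.030.

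The other anchored proteins gave no such difference. CD55, which speeds the decay of complement convertases, read 441.6 and 463.1, with log2 ratios from 0.050 to 0.22 over 3 probe sets. CD59, which blocks the membrane attack complex, read 5634.8 and 5166.6, and its 4 probe sets above the floor ranged from -0.32 to 0.15. THY1, a small surface glycoprotein of neurons and fibroblasts, read 2842.6 and 2831.6, with log2 ratios of its 3 probe sets from -0.33 to -0.0056. The 7 measured anchored proteins had a median log2 ratio of 0.069, against -0.095 for the 29 measured genes of synthesis, attachment and remodelling, of which 18 lay below the median of all genes. No test of that difference was made.

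The sequences just upstream of the start sites are shown for DPM2, GPC1, GPC2 and GPC4, the 4 members on the higher side of the probe set spread, with GPC6 as a glypican inside it. PIGQ, whose probe sets disagree, is not shown. Each is the 250 bases before the RefSeq start on GRCh38.p14, written 5′ to 3′ on the gene's strand. Capitals mark the GC box GGGCGG, the TATA box TATAAA and the ETS core CCGGAA, each searched on both strands and allowed to overlap.
DPM2 (chr9:127937855-127938104, minus strand): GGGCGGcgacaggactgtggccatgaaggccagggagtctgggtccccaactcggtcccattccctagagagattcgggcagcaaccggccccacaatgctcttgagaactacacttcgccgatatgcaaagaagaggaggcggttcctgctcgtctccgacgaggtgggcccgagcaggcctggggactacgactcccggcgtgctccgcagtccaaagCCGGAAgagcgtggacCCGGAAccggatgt
GPC1 (chr2:240435413-240435662, plus strand): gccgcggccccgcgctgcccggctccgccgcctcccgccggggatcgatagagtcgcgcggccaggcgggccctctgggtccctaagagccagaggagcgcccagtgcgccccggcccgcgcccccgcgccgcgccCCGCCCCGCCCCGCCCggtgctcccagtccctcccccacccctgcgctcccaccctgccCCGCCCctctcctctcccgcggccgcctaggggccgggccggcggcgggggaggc
GPC2 (chr7:100177382-100177631, minus strand): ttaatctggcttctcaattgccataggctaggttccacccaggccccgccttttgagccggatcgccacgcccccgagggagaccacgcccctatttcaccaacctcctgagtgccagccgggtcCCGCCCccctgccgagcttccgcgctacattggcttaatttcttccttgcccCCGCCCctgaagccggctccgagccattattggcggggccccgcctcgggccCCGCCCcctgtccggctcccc
GPC4 (chrX:133415490-133415739, minus strand): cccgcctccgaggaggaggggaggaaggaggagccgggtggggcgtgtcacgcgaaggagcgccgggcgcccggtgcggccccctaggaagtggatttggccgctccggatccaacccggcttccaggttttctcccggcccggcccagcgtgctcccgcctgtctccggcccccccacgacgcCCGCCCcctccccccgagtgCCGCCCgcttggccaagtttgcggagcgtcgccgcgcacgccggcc
GPC6 (chr13:93226557-93226806, plus strand): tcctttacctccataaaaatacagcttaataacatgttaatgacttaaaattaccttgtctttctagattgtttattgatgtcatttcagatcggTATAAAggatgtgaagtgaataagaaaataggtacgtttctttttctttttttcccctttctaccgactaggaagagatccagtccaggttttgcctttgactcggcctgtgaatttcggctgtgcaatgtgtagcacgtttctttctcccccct

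The windows of GPC1, GPC2 and GPC4 held 4, 3 and 2 GC boxes and no TATA box, with a GC content of 84.0%, 66.8% and 76.0%. The GPC6 window was different in make-up, with a GC content of 37.6%, no GC box and 1 TATA box. The DPM2 window held 1 GC box and 2 ETS cores. A GC box is common, found in 53.7% of 22199 windows of protein-coding genes, whereas TATAAA was found in 9.0% and CCGGAA in 18.0%. Over the 46 windows of the 31 members with an entry, 23 held a GC box, 3 a TATA box and 12 an ETS core. The 12 windows with an ETS core were among the 37 windows of synthesis, attachment and remodelling genes, and 0 were among the 9 windows of anchored proteins. The letters CCAAT were also searched on both strands and are not marked above. They were found in 14 of the 46 windows, beside 32.7% of all windows, in 10 of the 37 and 4 of the 9. No test of these counts was made. Windows of the same gene overlap in part, and a match describes letters in the window and not a bound factor.

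As deposited, the genes of chromosome 9 stood higher in the clone as a group, and DPM2 and PIGO differed in direction there. DPM2 and PIGO are the 2 members on chromosome 9, whose 445 genes measured on each array had a median log2 ratio of 0.48, against -0.0038 for the 10350 genes elsewhere. Chromosome 13, which holds GPC6, also stood higher but by less. Its 209 genes measured on each array had a median of 0.14, and 72.7% of them were above 0. Among the 5 genes on each side of DPM2 that were measured on each array in the RefSeq order, 8 of 10 were higher in the clone, beside 89.9% of the chromosome 9 genes and 51.2% of all genes so measured, with a median of 0.21 and a highest value of 0.91 for SLC25A25. PIGO went against its surroundings, since 10 of its 10 measured neighbours were higher, with a median of 0.40, while PIGO was lower on both of its measured probe sets. The part of chromosome 9 in the DPM2 value was not tested.

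GPC4 lies on chromosome X next to HS6ST2, with no other gene measured on both arrays between them. HS6ST2 adds sulphate to the 6-position of heparan sulphate, the sugar that glypicans carry. HS6ST2 read 1673.3 and 2843.3, 1.70-fold higher, with log2 ratios between 0.26 and 0.76 over 3 probe sets. The 10 neighbours of GPC4 had a median of -0.12, and 4 of them were higher. The genes of chromosome X as a whole had a median of 0.0037.

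Further GPI factors and the p24 cargo receptors, which gather anchored proteins for export, read lower in the clone on several probe sets. Of 10 genes with a probe set, 8 were measured, with a median log2 ratio of -0.16 and 2 above the median of all genes. TMED2 read 23336.4 and 18127.8 on its brightest probe set, and its 3 log2 ratios were -0.36, -0.84 and -0.91. TMED9 read 9094.4 and 7936.6 on 1 probe set and 3477.5 and 1408.9 on the other, log2 ratios of -0.20 and -1.30. TMED10 read 12038 and 10450.8 on its brightest probe set, a log2 ratio of -0.20, with -0.63 and 0.028 on the others. TMED5, a related receptor, was level at 10118 and 10180.7, and 3 of its 4 probe sets were higher. Across these 4 genes 8 of 12 probe sets were lower, beside 51.2% of all 20191 probe sets that passed the floor on each array, and 4 were at least 1.5-fold lower, beside 7.53%. The 4 genes were picked from the list after their values were seen, and the brightest probe set of TMED2, TMED9 and TMED10 turned sign when centred on the hybridisation spikes. GDPD5, a phosphodiesterase that cuts anchors at the cell surface, read 642.9 and 393.5, 1.63-fold lower, and PGAP6 disagreed between its probe sets, at 0.028 and -1.10. PGAP4 and NOTUM were below the floor on both arrays.

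Genes of dolichol and N-glycan precursor synthesis, which share the mannose donor with GPI, were all above the floor, 17 of 17 with a probe set, and had a median log2 ratio of -0.063. None was 2-fold apart, and 3 of the 17 were at least 1.5-fold lower, beside 8.43% of all genes. These were DPAGT1, which starts the precursor, at 3526.9 and 2285.0 (1.54-fold lower), ALG1, the first mannosyltransferase, at 721.5 and 470.0 (1.54-fold lower), and ALG10, a glucosyltransferase, at 408.1 and 243.1 (1.68-fold lower). With the floor 2 times as high ALG10 had no value. Its other probe set read 29.7 and 149.2, below the floor on both arrays. The 3 members on chromosome 9 stood higher, with log2 ratios of 0.38 for DOLK, the dolichol kinase, 0.37 for DOLPP1 and 0.47 for ALG2, and each turned lower when centred on the poly-A spikes. The dim second probe set of ALG2 read 271.3 and 25.0, the other way. The 14 members elsewhere had a median of -0.13, and 4 of them lay above the median of all genes.

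A longer list of other GPI-anchored proteins was spread around the median of all genes. Of 60 with a probe set, 21 were below the floor on both arrays and 39 were measured, with a median of -0.054, 17 above the median of all genes and 22 below. The 1 member past 2-fold was CNTN4, a contactin of axons, which read 157.3 and 790.3, at least 3.80-fold higher, 1 of 39 beside 1.21% of all genes. With the floor 2 times as high its log2 value was 0.93, under 2-fold, and with the median of its probe sets it was 1.28. Its second probe set also crossed the floor, from 92.0 to 324.5, at least 1.56-fold. CNTN1, another contactin, read 607.5 and 1018.2, 1.68-fold higher, with a log2 ratio of 0.17 on a second probe set. NT5E, the surface nucleotidase CD73, read 186.1 and 333.8, at least 1.60-fold higher. All its other probe sets were below the floor on both arrays, and with the floor 2 times as high it had no value. At least 1.5-fold higher were 3 of the 39, beside 5.38% of all genes, and at least 1.5-fold lower were 6, beside 8.43%. Among the 6, RTN4RL2, a Nogo receptor homologue, read 469.7 and 237.8, and HYAL2, a hyaluronidase, read 1877.6 and 1185.5. With the floor 2 times as high HYAL2 alone of the 6 kept a ratio of this size, RTN4RL2 came to a log2 value of -0.18 and PRND to -0.0073, and the other 3 had no value. For 3 of the 6 (LYPD6, OPCML and FOLR2) the clone signal was under the floor, and background signals were lower on the clone array too; their part in these bounds was not tested. Bright members were level on their brightest probe sets, among them PRNP, the prion protein, at 14078.4 and 15679.5, LY6E at 11704 and 11424.1, and GAS1 at 24637 and 28126.9. The second probe set of PRNP read 3360.1 and 4510.0, a log2 ratio of 0.42. A dim probe set of GAS1 read 318.9 and 178.9, below the floor in the clone.

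The enzymes that build heparan sulphate on glypicans and syndecans had a median of -0.059 over 21 measured genes, with 0 past 2-fold. HS6ST2, NDST4, a deacetylase and sulphotransferase, and SULF2, which removes 6-sulphates at the surface, were at least 1.5-fold higher, 3 of 21 beside 5.38% of all genes, and 2 were at least 1.5-fold lower, beside 8.43%. With the median of their probe sets the log2 values of the 3 were 0.33, 0.28 and 0.40, under 1.5-fold. NDST4 read 2809.3 and 4331.9 on 1 probe set and was level on the other at 313.5 and 301.5, and SULF2 read 390.8 and 597.4. B4GALT7, which adds the first galactose of the linker, read 930.9 and 620.0 and was lower on both probe sets, at log2 ratios of -0.59 and -1.17. EXTL3, which starts the chain, read 881.6 and 567.5 on 1 probe set and 506.7 and 561.1 on the other. The transmembrane carriers of the same chains, the syndecans, had a median of 0.027 over 4 genes, with SDC2 at 2476.8 and 2531.6 and SDC4 at 1131.4 and 1148.4.

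**Figure D3:**
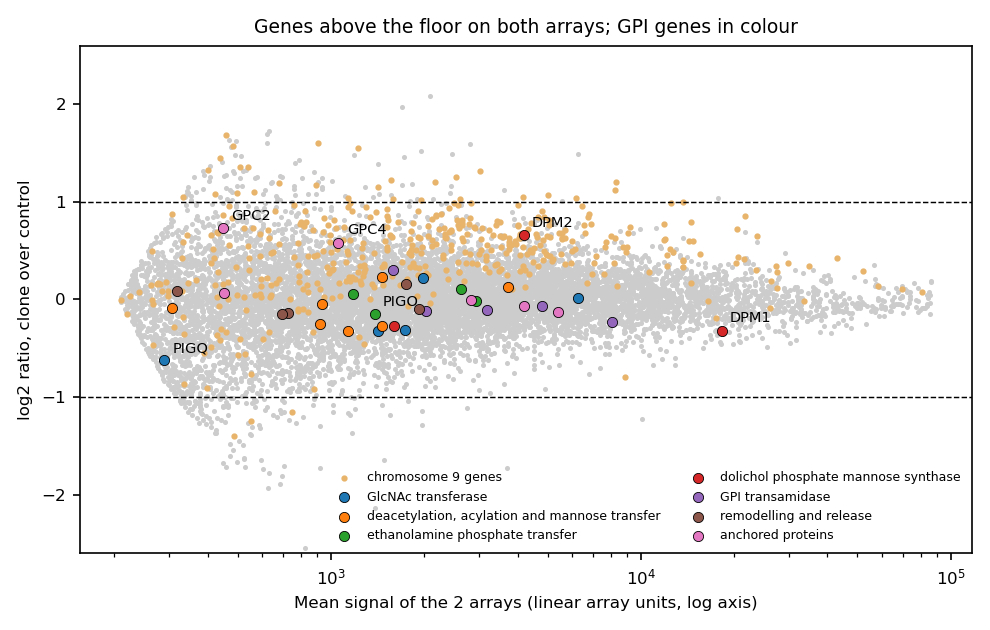
Log2 ratio (clone over control) against the mean signal of both arrays (log axis, linear array units) for 10795 genes above the floor on both (grey), with chromosome 9 genes in tan and GPI genes in the colours of their roles; dashed lines are 2-fold. GPI genes lie near 0 across the signal range, and DPM2 lies among the tan points, whose median is 0.48, while PIGO lies below most of them.

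**Figure D4:**
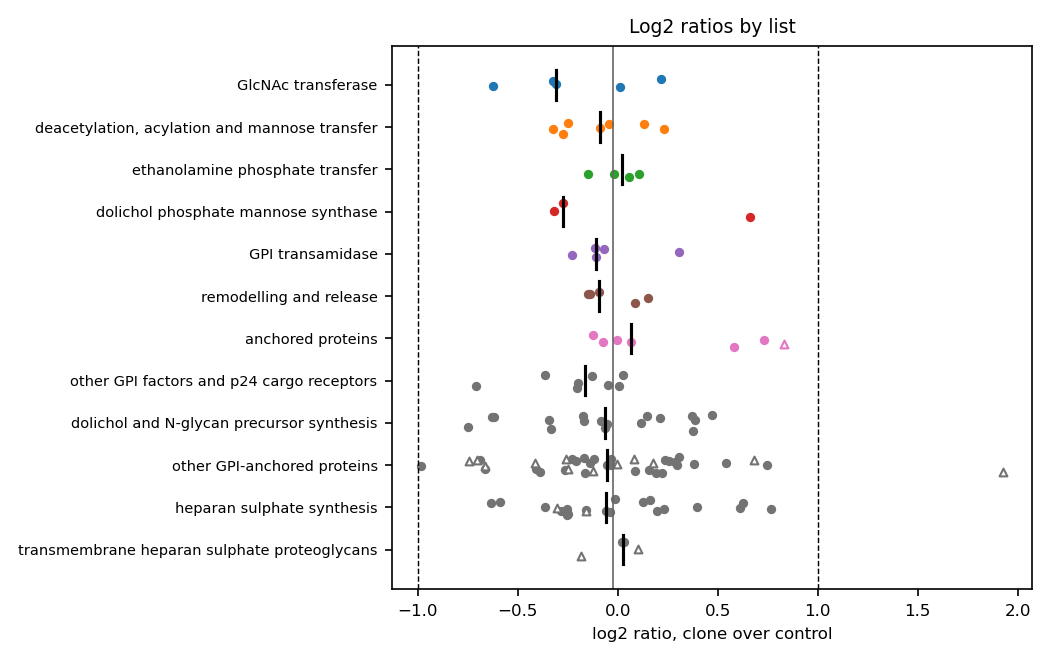
Log2 ratios of the measured genes of each list (circles; triangles are bounds), with the list's median as a black bar, the median of all genes, -0.022, as a grey line and 2-fold as dashed lines. CNTN4, in the list of other GPI-anchored proteins, is the only point past 2-fold, and the list medians run from -0.31 to 0.069.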

How the data were processed

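The authors deposited 1 intensity value (a linear signal) for each probe set and array, and GCOS version 1.3 is named in the submitters' processing notes. The way probes were summarised, the scaling target and any detection calls were not given in the sources used here. Without the lowest and highest 2% of 54675 signals, the mean was 999.88 on each array, so the arrays had been scaled to 1 level and a change common to most transcripts cannot be seen. The number of arrays limits the precision.

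Groups came from the sample labels. Names came from the platform's 2016 annotation, where 41097 probe sets had 1 gene symbol, 1801 several and 11777 none here; symbols were updated by gene ID for 41043 through RefSeq GRCh38.p14, whose gene order and promoter windows were also used. Only probe sets with 1 symbol were used, and a gene took the ratio of its brightest probe set. The named genes were every listed GPI gene that was measured, and, from 5 further lists, members past 2-fold, members past 1.5-fold in lists under 30 genes, and bright members; other names were chosen after their values were seen. The members and lists were chosen with earlier results of these data known. With 1 array per group no p-value is given. The computations used pandas 2.3.3 and numpy 2.4.6 in Python 3.11.15, with statsmodels 0.14.6 for a loess alternative, and were tested on simulated data with 200 changed genes. Alternatives changed the floor, the choice of probe sets and the scaling, or added a pseudocount.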

Additional observations from a re-analysis of the deposited data

Results flagged for a closer look

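The probe sets that carry both the PIGY and the PYURF symbol were left out above because no single gene can be read from them, and they were above the control array's level in the clone. The brighter read 6133.1 with the empty vector and 6818.4 in the clone, a ratio of 1.11. The dimmer read 873.4 and 1381.7, a ratio of 1.58. With 1 array per group neither ratio has a replicate error, and which of the 2 genes they report was not tested.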

How the results depend on the processing

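Of 106 recomputed counts and medians, under up to 11 alternatives, 83 stayed within the spread used here. That spread was 1.5 times for a count. For a median it was the probe set SD of 0.35 divided by the square root of the number of genes. Group and list medians were recomputed only for floors, choices of probe sets and loess. Medians were relative to all genes, so a common rescaling nearly cancels in them and their staying says little. Of 589 recomputed values of single genes, 140 moved by 0.35 or more. The counts of members past 2-fold were 0 in each direction as deposited. With no floor they became 1 higher and 1 lower of 37, beside 7.89% and 17.7% of all genes. Centred on the hybridisation spikes 5 of 36 were higher, beside 7.2%, and the 5 include PIGQ, read there by its other probe set. Centred on the poly-A spikes 1 of 36 was lower, beside 11.6%. Without a floor the 2 genes were GPC1 and GPC3, both with a signal in the background range. The 3 members at least 1.5-fold higher became 1 of 32 with the floor 2 times as high, beside 4.62% of all genes. They became 12 on hybridisation spikes, beside 35.7%, and 0 on poly-A spikes, beside 0.671%. The 1 member at least 1.5-fold lower became 0 with the higher floor, beside 3.84% of all genes, and on hybridisation spikes, beside 2.35%. This count was also 0 with the median of probe sets (7.62%), without shared-sequence probe sets (8.33%) and after loess (8.1%). With no floor 2 of 37 were lower, beside 26%, and on poly-A spikes 23 of 36, beside 49.3%.

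Medians relative to all genes moved with the choice of probe sets. With each gene at the median over its probe sets, all members went from -0.049 to 0.015, the N-acetylglucosamine transferase from -0.29 to 0.060, remodelling genes from -0.073 to 0.11, and the p24 and further GPI factors from -0.14 to -0.39. Without shared-sequence probe sets, these factors stood at -0.66, the transferase at 0.073, the anchored proteins at 0.26 (from 0.090), the dolichol list at 0.13 (from -0.041) and the other anchored proteins at -0.11 (from -0.033). The cause was not tested. No paired analysis was possible because each group has 1 array. No replicate could be left out for the same reason.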
